A study of Mus musculus with 4 samples.

Results

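The spots richest in the transcript of Slc17a7, which encodes the vesicular glutamate transporter VGLUT1, were described in mouse brain slices before and after a photothrombotic cortical injury. In each slice, the eligible spots were those over tissue with at least 1000 UMIs (unique molecular identifiers, each marking 1 captured RNA molecule) and no UMI of Col1a1, the fibroblast collagen gene. The 20% of eligible spots with the most Slc17a7 UMIs per 10000 UMIs were then selected, which gave 946 glutamatergic neuron-rich spots of 9340 tissue spots (10.1%). They held 13233163 UMIs. A spot is a small area that can hold several cells, so its RNA comes from neurons together with the glia and vessels around them, and fewer cells of a type cannot be told apart from less RNA per cell.

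Visium capture areas, 4 in number, carried 2 slices each, from 8 mice in all, and slices were separated as connected pieces of tissue. Photothrombotic (PT) injury clots the vessels of the S1 cortex by light through the skull after the dye Rose Bengal, and times are days post-injury (dpi). The wild-type (WT) slices were 1 at rest (uninjured), 1 at 2 dpi, 2 at 7 dpi and 2 at 21 dpi, each from a separate mouse. A further 2 slices at 21 dpi came from Cthrc1(creER); R26(DTA) mice, here called deleter, in which a Cre driven by the myofibroblast gene Cthrc1 is meant to switch on diphtheria toxin A. The submitters set these mice aside because no deletion could be detected, so they are shown here only beside the WT slices. The study's methods describe mice of both sexes on a C57BL/6 background, and the labels give no age or sex for these 8. Which slice of the first area is the rest slice and which the 2 dpi slice was taken from the outlines drawn by the study, not from the labels.

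Slc17a7 marks the excitatory projection neurons of the cortex and hippocampus, which load glutamate into synaptic vesicles and signal through AMPA and NMDA receptors. Neurons that survive beside an ischaemic lesion are surrounded by astrocytes, which become reactive and raise intermediate filament genes, and by microglia, which clear debris. Immediate early genes such as Fos, Arc and Egr1 are switched on within minutes of synaptic activity and are widely used as readouts of it.

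The selected spots numbered 194 at rest, 254 at 2 dpi, 82 and 46 at 7 dpi, 122 and 56 at 21 dpi, and 62 and 130 in the deleter slices. Slc17a7, at chromosome 7, positions 45163949 to 45176142 on the plus strand of GRCm38, was at 8.23 UMIs per 10000 in their sum at rest, 7.41 at 2 dpi, 10.0 and 11.03 at 7 dpi, 9.97 and 10.5 at 21 dpi, and 10.5 and 11.6 in the deleter slices. These values chose the spots and are given as a description. The lowest value selected and the highest left out were 6.6273 and 6.6269 per 10000 at rest, 5.698 and 5.694 at 2 dpi, 7.618 and 7.602 in 7 dpi slice 1, 7.911 and 7.893 in 7 dpi slice 2, 7.582 and 7.568 in 21 dpi slice 1, and 8.753 and 8.728 in 21 dpi slice 2. In the deleter slices they were 8.798 and 8.768, and 8.834 and 8.829. The spots therefore did not form a class apart from their neighbours on the tissue, and the threshold was lowest at 2 dpi.

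The slices differed in what could be selected. Eligible spots made up 95.4% of the tissue spots at rest, 73.6% at 2 dpi, and 42.1% and 24.1% at 7 dpi. They made up 45.3% and 34.1% at 21 dpi, and 34.2% and 40.9% in the deleter slices. At 2 dpi, 375 spots had under 1000 UMIs and 80 others held Col1a1 UMIs. In the slices at 7 and 21 dpi, deleter slices included, most spots left out held Col1a1 UMIs. Median depth of the selected spots lay between 12662.5 and 18725.5 UMIs in the other 7 slices but was 1792.5 at 2 dpi. There, 93 of the 254 spots (36.6%) were selected on a single Slc17a7 UMI and 157 (61.8%) had under 5000 UMIs. Those shallow spots gave 13.5% of its UMIs. Values at 2 dpi are therefore given again for spots of at least 5000 UMIs where they moved.

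The slices also reached different brain regions. Spots were marked where genes of the hippocampus (Spink8 of CA1 neurons, Fibcd1, C1ql2), Prkcd of the thalamus or Hs3st4 were found in or around them. Whether Hs3st4 also marked spots of the cortex was not tested. Marked were 51 selected spots at rest (26.3%), 9 at 2 dpi (3.54%), and 47 and 16 at 7 dpi (57.3% and 34.8%). At 21 dpi they were 72 and 2 (59.0% and 3.57%), and 0 of 62 and 65 of 130 in the deleter slices. Levels are given in counts-per-million (CPM), the share of a gene in the summed UMIs of the selected spots of a slice. Spink8 stood at 62.9 CPM at rest, 3.73 at 2 dpi, 90.8 and 206 at 7 dpi, 78.0 and 2.65 at 21 dpi, and 4.37 and 169 in the deleter slices. It thus differed by over 2-fold between the slices of each time that had 2. Leaving the marked spots out kept 684 spots, called cortical below for short, and results are given with and without the marked spots where they changed.

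**Figure D1:**
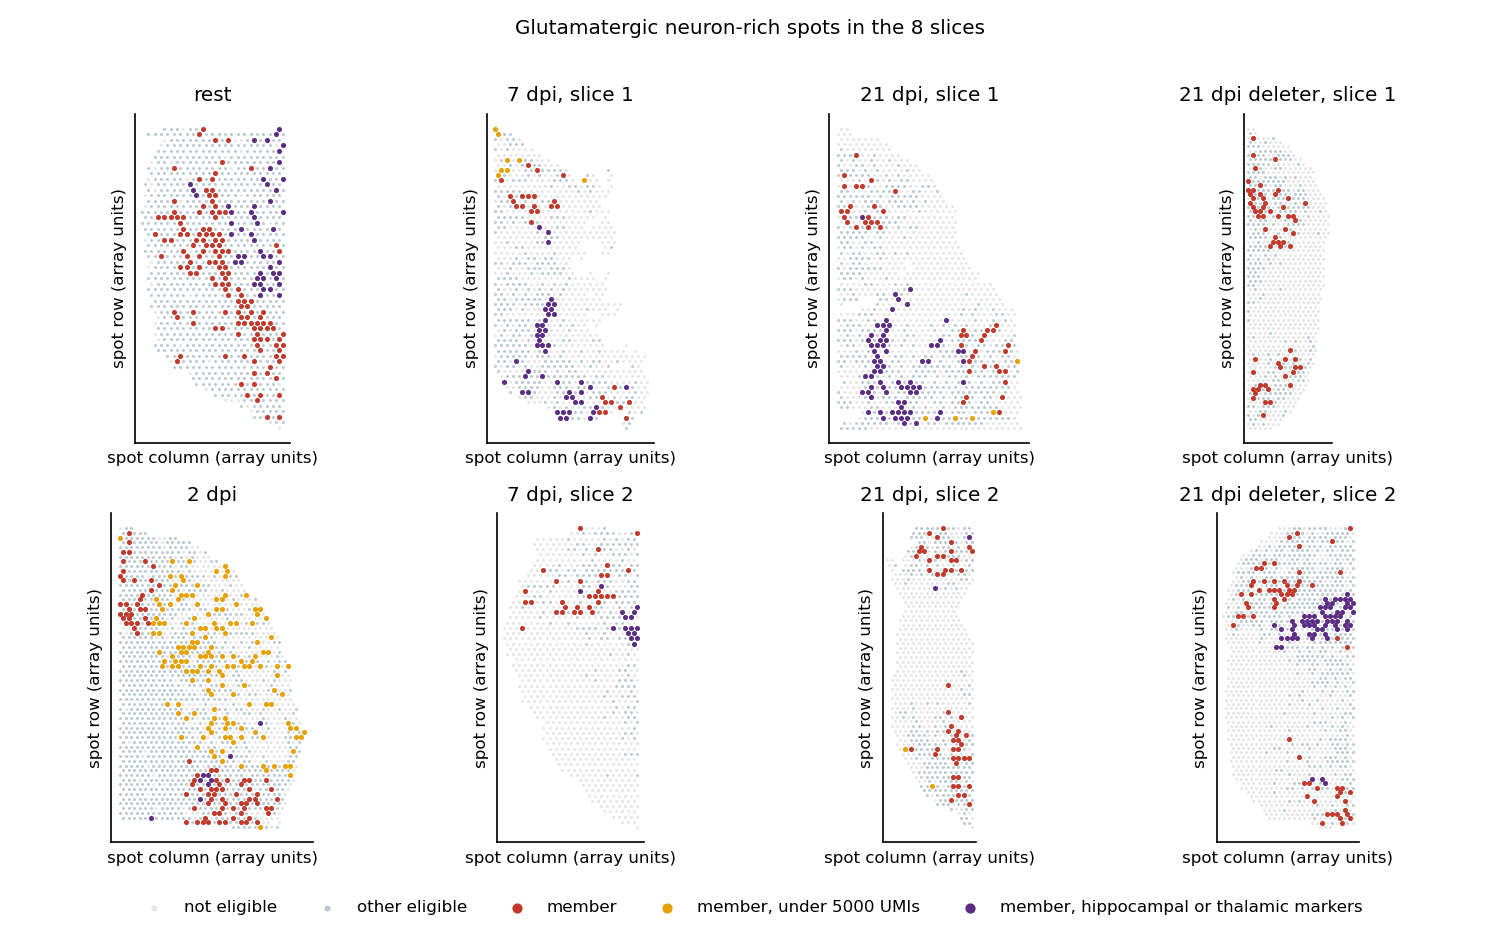
Position of the glutamatergic neuron-rich spots in the 8 slices, by spot row and column of the array (array units), 1 panel per slice. Red, orange and purple points are the 946 selected spots (orange under 5000 UMIs, purple with hippocampal or thalamic markers), pale blue points the other eligible spots and grey points those not eligible. Orange points fill the middle of the 2 dpi slice, and purple points are many in 7 dpi slice 1, 21 dpi slice 1 and deleter slice 2 and few in 21 dpi slice 2.

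The label was checked against 11 other genes of glutamatergic neurons (Camk2a, Neurod6, Nrgn and the like). Their median log2 ratio of selected to other eligible spots was 0.22 at rest, 0.94 at 2 dpi, 0.87 and 0.57 at 7 dpi, 0.39 and 0.01 at 21 dpi, and 0.43 and 0.67 in the deleter slices. The median of these 11 genes was thus higher in the selected spots of 7 slices and level in 21 dpi slice 2. Neurod6, a transcription factor of cortical excitatory neurons, was higher in every slice, by 0.36 to 2.64 on the log2 scale. Oligodendrocyte genes were lower in every slice, with list medians from -1.62 to -0.14, as were reactive astrocyte genes (-1.69 to -0.28) and activated phagocyte genes (-2.05 to -0.14), while the median over all genes was 0.01 to 0.07. Excitatory neurons of all layers were not equally represented. The median of layer 2/3 and 4 genes was 0.44 at 2 dpi and below 0 in the other 7 slices, from -0.71 to -0.14. That of layer 5 and 6 genes was -0.22 in deleter slice 2 and above 0 in the others, from 0.11 to 0.90. Ranking a spot by its Slc17a7 share lowers the share of all other RNA in it, so these ratios describe the selection and were not tested. The selected spots were thus the Slc17a7-rich, glia-poor end of the Col1a1-free tissue, with marked amounts of glial RNA left in them.

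Against the rest slice, genes were counted that differed by more than 2-fold in every slice of a time, among genes reaching 20 CPM. UMI counts under 3 were set to 3 first. A gene under 3 UMIs both at rest and in a 7 or 21 dpi slice could therefore pass as higher there, because rest held more UMIs. Cxcl10 did so in 7 dpi slice 2, with 2 UMIs there and 0 at rest. How many others did was not counted. At 2 dpi, 243 of 7635 genes were higher (3.18%) and 71 lower (0.93%). At 7 dpi, 148 of 7799 were higher (1.9%) and 38 lower (0.487%). At 21 dpi, 33 of 7719 were higher (0.428%) and 15 lower (0.194%). The counts were smaller at each later time, although the 2 dpi count needs agreement in 1 slice and the later counts in 2. Rest was 1 slice from 1 mouse, so these ratios have no test, and every comparison with rest shares that slice.

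The genes furthest above rest at 2 dpi were Lcn2, Tgm1, Timp1 and Ccl12, at 114, 82.0, 80.4 and 73.5 CPM, with 1 or 2 UMIs of each at rest. The ratio to rest was 384 for Lcn2 (exact 95% interval 68.2 to 15243, counting error only), 138 for Tgm1 (37.6 to 1152), 271 for Timp1 (47.9 to 10776) and 124 for Ccl12 (33.6 to 1033), so only the lower ends of these intervals are informative. Lcn2 encodes lipocalin 2, a secreted protein of reactive astrocytes and neutrophils. Timp1 encodes an inhibitor of metalloproteinases and Ccl12 a monocyte-attracting chemokine. At 7 dpi the 6 highest were Lgals3, Cxcl10, Spp1, Lyz2, Gpnmb and the collagen gene Col3a1, of which Spp1, Lyz2 and Gpnmb, genes of phagocytes, stood at 31.7, 31.0 and 24.6 times the rest level. Cxcl10, a chemokine induced by interferon, had no UMI at rest. Its ratio was 34.8, computed with 3 UMIs set both in the rest slice and in 7 dpi slice 2. Its levels were 58.7 and 2.12 in the 7 dpi slices, so slice 1 alone set its place. At 21 dpi the 6 with the highest mean were Lyz2 (37.8 times rest), Lcn2, C3, Col1a2 (23.4), Gpnmb (17.5) and Cyp26b1 (17.2). Slice 1 set the places of Lcn2 (53.8 and 10.6 CPM), C3 (34.0 and 7.94) and Cyp26b1 (45.8 and 5.30). Immune, glial and matrix genes thus led, and no gene of the neuronal lists was among the 6 highest at any.

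Reactive astrocyte genes stood further above rest than any other list at 2 dpi. Gfap, the intermediate filament gene that defines astrocyte reactivity (chromosome 11, 102887336 to 102900912, minus strand, GRCm38), was at 56.4 CPM at rest, 580 at 2 dpi, 402 and 299 at 7 dpi, 142 and 96.6 at 21 dpi, and 87.4 and 99.2 in the deleter slices. Both 7 dpi slices lay above both 21 dpi slices, and all slices after injury lay above rest. The ratio of 2 dpi to rest was 10.3 (exact 95% interval 8.81 to 12.1, counting error only). Vim, the filament gene vimentin, was at 33.8 at rest, 461 at 2 dpi, 191 and 138 at 7 dpi, and 65.0 and 53.0 at 21 dpi, in the same order of times. Serpina3n, a secreted protease inhibitor of reactive astrocytes, was at 8.90 at rest, 127 at 2 dpi, 90.1 and 104 at 7 dpi, and 47.0 and 23.8 at 21 dpi. It had not come back to the rest level in either 21 dpi slice.

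Of the reactive astrocyte list, all 9 measured members were more than 2-fold above rest at 2 dpi, 4 of 5 at 7 dpi and 4 of 7 at 21 dpi. The list median was a log2 ratio to rest of 3.25 at 2 dpi, 2.53 and 2.10 at 7 dpi, 1.58 and 0.89 at 21 dpi, and 0.80 and 1.34 in the deleter slices, against -0.04 to 0.13 over all genes. In 2 dpi spots of at least 5000 UMIs it was 3.40. The list of homeostatic astrocyte genes moved less, from -0.04 to 0.67 over the WT slices. Aqp4, the water channel of astrocyte endfeet, was at 65.3 CPM at rest, 145 at 2 dpi, 189 and 114 at 7 dpi, and 68.7 and 53.0 at 21 dpi. Mlc1, a membrane protein of the same endfeet, was the 1 member past 2-fold above rest in both 7 dpi slices, at 75.1 CPM at rest and at 158.2 and 158.1 at 7 dpi. Oligodendrocyte genes, of another glial type, had medians from -0.42 to 0.25 over the WT slices.

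The list medians over rest of microglia and activated phagocyte genes were highest at 7 dpi, though not every gene followed them. C1qa, a complement component made by microglia, was at 54.3 CPM at rest, 166 at 2 dpi, 330 and 204 at 7 dpi, and 161 and 127 at 21 dpi. Spp1, which encodes osteopontin, was at 7.12 at rest, 208 at 2 dpi, 346 and 105 at 7 dpi, and 32.2 and 37.1 at 21 dpi. Ctsd, the lysosomal protease cathepsin D, was at 284 at rest, 558 at 2 dpi, 1661 and 1003 at 7 dpi, and 738 and 486 at 21 dpi. In each, both 7 dpi slices lay above both 21 dpi slices and 7 dpi slice 1 above slice 2. In the new selection among spots of at least 5000 UMIs, the 2 dpi value of Spp1 was 74.0. That of Lgals3, which encodes galectin 3, was 51.7 in the first selection and 13.0 in the new one.

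Of the phagocyte list, 10 of 14 measured members were past 2-fold above rest at 7 dpi, against 6 of 12 at 2 dpi and 3 of 12 at 21 dpi. Of the microglia list, it was 7 of 11 at 7 dpi, 7 of 10 at 2 dpi and 4 of 9 at 21 dpi. Apoe, the lipoprotein that is the most abundant gene of the phagocyte list and is also made by astrocytes, differed from Spp1 and Ctsd. It was at 1399 CPM at rest, 965 at 2 dpi, 3447 and 2557 at 7 dpi, and 2780 and 2355 at 21 dpi. It was thus below rest at 2 dpi and above it later, with the ranges of 7 and 21 dpi overlapping.

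Interferon-stimulated and MHC class I genes were a second group with its highest levels at 7 dpi. Isg15, a ubiquitin-like protein induced by interferon, was at 3.86 CPM at rest, 28.2 at 2 dpi, 38.7 and 16.98 at 7 dpi, and 3.09 and 5.30 at 21 dpi. Ifit3, which encodes an antiviral protein that binds RNA-sensing complexes, was at 6.53 at rest, 7.46 at 2 dpi, 39.4 and 18.0 at 7 dpi, and 6.81 and 6.62 at 21 dpi. Both were back near rest at 21 dpi, and Ifit3 was near rest at 2 dpi too. H2-K1, a classical MHC class I heavy chain, was at 23.4 at rest, 46.3 at 2 dpi, 127 and 67.9 at 7 dpi, and 37.7 and 33.1 at 21 dpi. B2m, the light chain of MHC class I, was at 144, 239, 495 and 298, and 263 and 241 in the same order. Both MHC genes thus peaked at 7 dpi and kept levels above rest at 21 dpi. Of the list, 10 of 11 measured members were past 2-fold above rest at 7 dpi, 5 of 9 at 2 dpi and 1 of 6 at 21 dpi.

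As interferon genes moved together, the letters of the interferon-stimulated response element (GAAA, NN, GAAA, on either strand, overlapping matches counted) were looked up in the promoters of the list, 250 bases before to 50 after the start site, from RefSeq on GRCm38.p6. Of the 14 list genes, 11 had a promoter in the table and 6 of them held the letters (B2m, Ifit1, Ifit3, Isg15, Bst2 and Ifitm3), against 1131 of all 32851 promoters (3.44%). The list was made of interferon-stimulated and MHC class I genes, so this share describes the choice of genes and not these slices. It is counted by gene, though H2-K1 had 2 promoters, and the share over all by promoter. The 250 bases before the start site are shown for Ifit3 and Isg15, whose levels are given above, with the matching letters in capitals. Ifit3 lies on the plus strand at chr19:34583279-34583528 and holds 2 matches, and Isg15 on the minus strand at chr4:156200819-156201068 with 3 overlapping matches. A match of letters is a description of sequence and not evidence of binding.
Ifit3: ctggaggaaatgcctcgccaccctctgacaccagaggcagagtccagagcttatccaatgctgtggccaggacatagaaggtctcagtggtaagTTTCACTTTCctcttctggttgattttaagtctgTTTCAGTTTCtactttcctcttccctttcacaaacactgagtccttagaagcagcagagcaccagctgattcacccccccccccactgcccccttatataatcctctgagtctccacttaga
Isg15: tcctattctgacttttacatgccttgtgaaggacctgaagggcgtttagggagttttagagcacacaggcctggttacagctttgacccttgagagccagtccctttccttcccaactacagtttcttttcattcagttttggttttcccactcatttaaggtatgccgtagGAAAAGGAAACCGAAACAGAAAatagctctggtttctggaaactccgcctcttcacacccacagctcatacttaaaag

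In the selected spots, genes of the synapse, of ion channels and of nuclear oxidative phosphorylation stayed nearer to rest than those of reactive astrocytes, microglia and phagocytes. Ranking by Slc17a7 favours neuronal RNA in every slice, so this does not show that neuronal genes were spared in the tissue. The vesicle list sum was 9169 CPM at rest, 7274 at 2 dpi, and 8815 and 11095 at 7 dpi. In the other eligible spots it was 7952, 4113, and 4777 and 6849, and at 21 dpi 8310 and 10436. None of the 19 synaptic vesicle genes, 12 cytoskeletal genes or 20 nuclear oxidative phosphorylation genes was past 2-fold of rest at 2, 7 or 21 dpi. At 2 dpi, 1 of 17 measured glutamate receptor genes and 1 of 9 GABA-A receptor subunits were past 2-fold below rest. At 7 dpi, 1 of 10 measured glutamatergic identity genes was. Mitochondrially encoded genes were lower, with list medians of -0.20 at 2 dpi, -0.56 and -0.44 at 7 dpi, and -0.39 and -0.27 at 21 dpi. Among 13 measured members, 3 were past 2-fold below rest at 7 dpi (mt-Atp8, mt-Nd4l and mt-Nd6) and 2 at 21 dpi, and in cortical spots the medians were -0.28 and -0.26 at 7 dpi. Snap25, the SNARE protein of presynaptic release, was at 3089 CPM at rest, 2373 at 2 dpi, 2833 and 3760 at 7 dpi, 3910 and 4179 at 21 dpi, and 3662 and 4086 in the deleter slices. It was lowest at 2 dpi and above rest in both 21 dpi slices, with the 7 dpi slices on either side of rest. The median log2 ratio to rest of the vesicle list followed the same order, -0.30 at 2 dpi, -0.10 and 0.22 at 7 dpi, and 0.26 and 0.35 at 21 dpi. Grin2b, an NMDA receptor subunit, was at 89.0 at rest, 78.8 at 2 dpi, 150 and 138 at 7 dpi, and 122 and 98.0 at 21 dpi. Gria2, the AMPA receptor subunit that limits calcium entry, was at 565, 472, 891 and 519, and 577 and 520 in that order, so the high value was that of 7 dpi slice 1 alone.

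Nefm, a neurofilament subunit, was at 158 CPM at rest, 290 at 2 dpi, 111 and 195 at 7 dpi, and 197 and 257 at 21 dpi, highest at 2 dpi. Stmn1, which destabilises microtubules, was at 1355, 1100, 543 and 931, and 785 and 1660, with a wide gap between the 21 dpi slices. Of the axon growth and neuronal injury list, 2 of 15 measured members were past 2-fold above rest at 2 dpi and 0 of 13 at 7 and 21 dpi, where 1 of 13 was past 2-fold below rest, Gadd45a at both times.

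Immediate early genes were lower than at rest in all later slices. Fos was at 88.4 CPM at rest, 49.0 at 2 dpi, 10.7 and 32.9 at 7 dpi, 58.8 and 54.3 at 21 dpi, and 18.6 and 39.4 in the deleter slices. Arc, which regulates AMPA receptor uptake (chromosome 15, 74669083 to 74672570, minus strand, GRCm38), was at 197 at rest, 74.0 at 2 dpi, 13.3 and 71.1 at 7 dpi, 83.5 and 107 at 21 dpi, and 54.6 and 59.4 in the deleter slices. Dusp1, a MAP kinase phosphatase, was at 97.3 at rest, 49.5 at 2 dpi, 18.7 and 42.4 at 7 dpi, 60.03 and 82.1 at 21 dpi, and 28.4 and 33.2 in the deleter slices. All of them were lowest in 7 dpi slice 1, and the deleter slices at 21 dpi lay below both WT slices of that time. The list median of the log2 ratio to rest was -0.69 at 2 dpi, -1.39 and -0.84 at 7 dpi, -0.37 and -0.23 at 21 dpi, and -1.02 and -0.88 in the deleter slices. Of 16 measured members, 4 were past 2-fold below rest at 2 dpi and 7 at 7 dpi, against 0 of 17 at 21 dpi and 8 of 16 in the deleter slices. Over all genes the deleter slices had 19 of 7574 past 2-fold above rest (0.251%) and 26 below (0.343%). In cortical spots the median was -0.23 and -0.33 in the WT slices at 21 dpi and -1.07 and -0.47 in the deleter slices, so deleter slice 2 lay nearer to WT there.

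**Figure D2:**
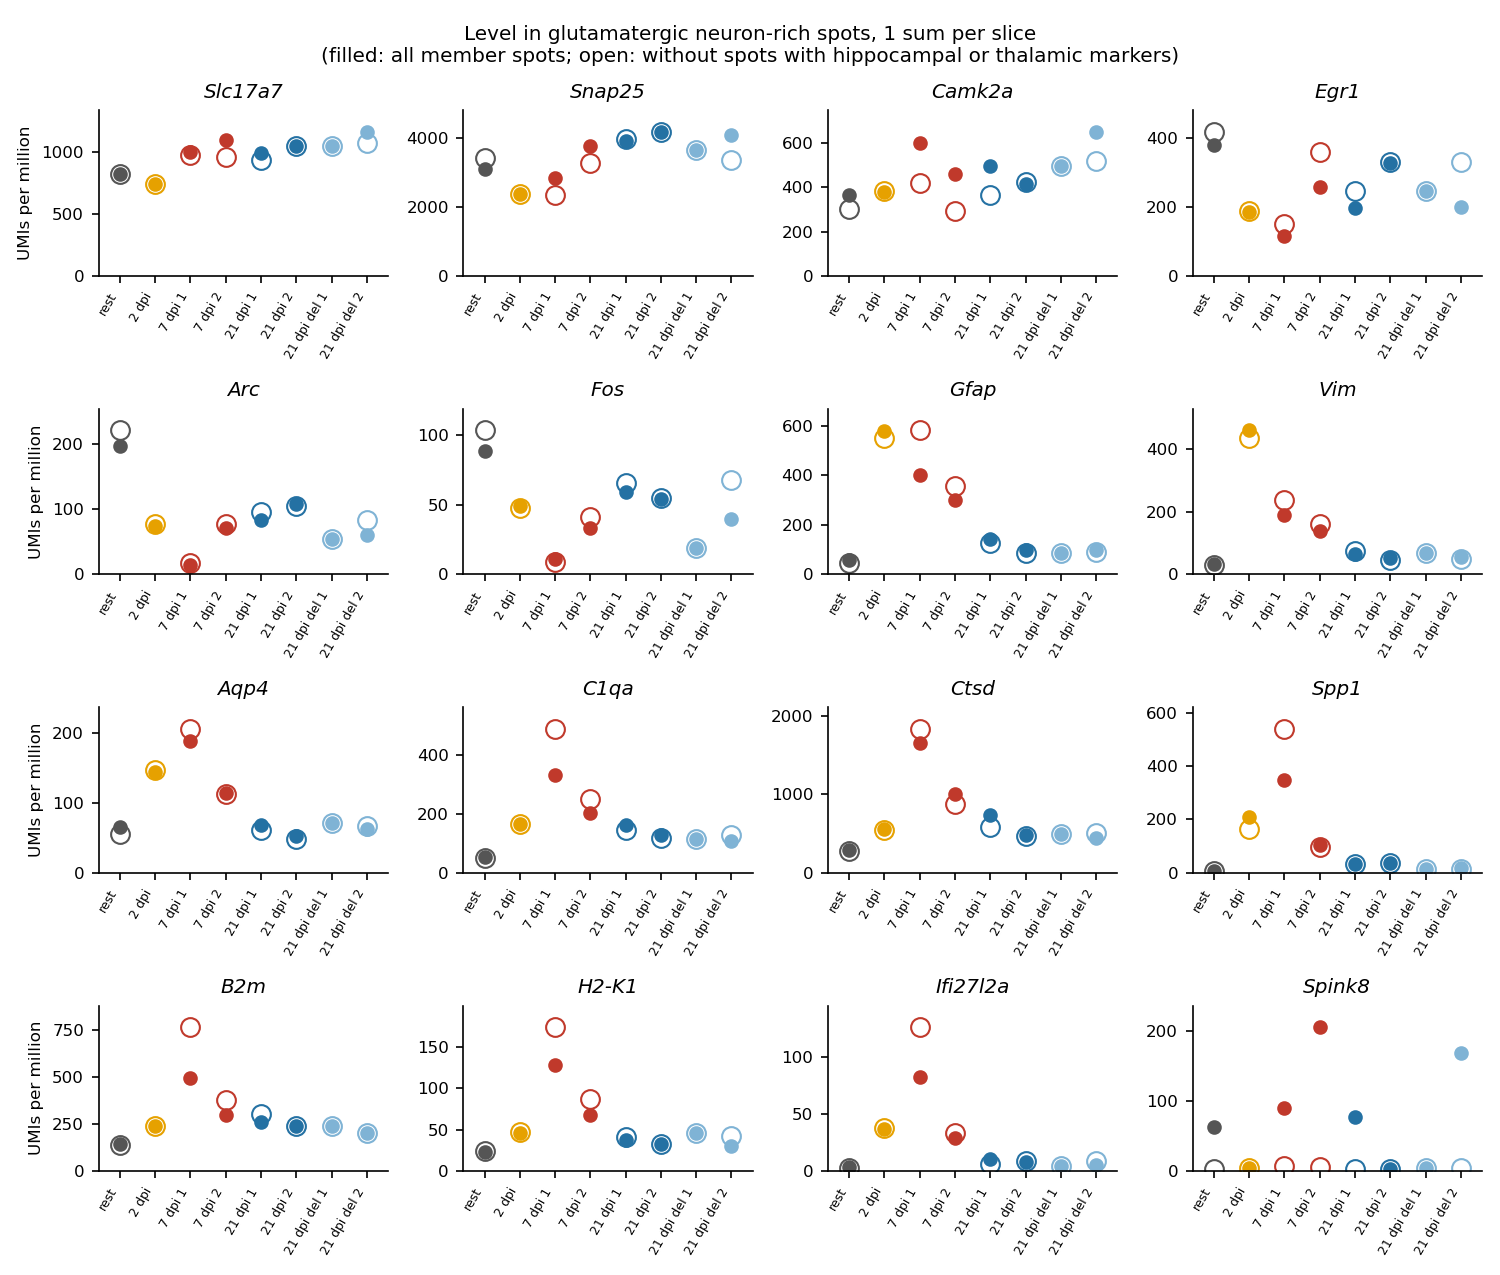
Level of 16 genes in the glutamatergic neuron-rich spots, in CPM (vertical axis, linear from 0), with 1 point for each of the 8 slices. Filled points are all selected spots and open points those without hippocampal or thalamic markers. Gfap, Vim, C1qa, Ctsd, Spp1 and the interferon and MHC genes are higher in both 7 dpi slices than at 21 dpi, Arc and Fos are highest at rest, and Spink8 varies with the region the slice reached.

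Haemoglobin and other blood genes also set slices apart. The sum of the blood list was 1313 CPM at rest, 169 at 2 dpi, 422 and 400 at 7 dpi, 121 and 1107 at 21 dpi, and 72.1 and 73.5 in the deleter slices. Rest and 21 dpi slice 2 were thus high and the others low, which did not follow time. Heat shock genes had list medians from -0.17 to 0.28 of rest over the 7 other slices, and hypoxia and glycolysis genes from -0.08 to 0.23, with 0 of 6 and 0 of 10 measured members past 2-fold at any time.

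**Figure D3:**
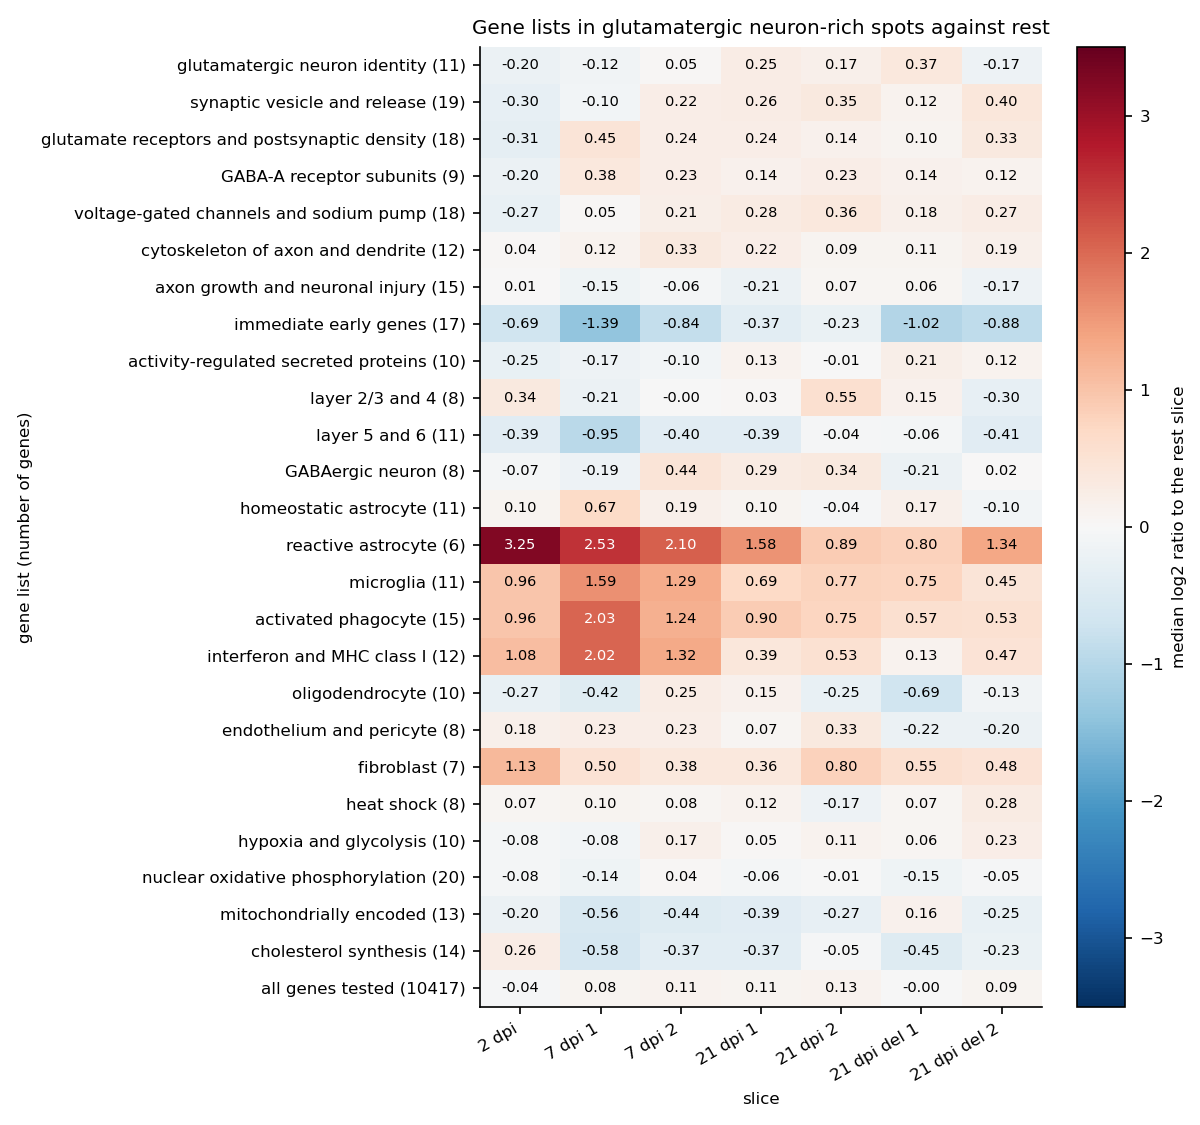
Median log2 ratio to the rest slice of 25 gene lists and of all genes in the glutamatergic neuron-rich spots, 1 column per slice and 1 row per list (genes tested at 7 against 21 dpi in brackets), with red above and blue below rest and 5 CPM added to both levels. Of the lists drawn, which leave out sex-linked and blood genes among others, reactive astrocyte genes are furthest above rest in every slice, at 3.25 at 2 dpi and 0.89 in 21 dpi slice 2, while the synaptic vesicle list stays between -0.30 and 0.40 and immediate early genes lie between -1.39 and -0.23.

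WT slices at 7 and 21 dpi, 2 each, were compared by edgeR's quasi-likelihood test on the summed counts. Of 10417 genes, 3 passed at an adjusted p under 0.05 (0.0288%), all of them sex-linked: Xist, the RNA of X inactivation (log2 difference 6.92, SE 0.66), and the Y-linked Eif2s3y (-8.94, SE 0.74) and Ddx3y (-8.77, SE 0.77), each with an adjusted p of 0.00491. Xist stood at 77.4 and 45.6 CPM at 7 dpi and at 0.619 and 0 at 21 dpi, and Ddx3y at 0 and 0 against 48.9 and 41.0. Time therefore coincided with the sex-linked genes and with the capture area, and these cannot be told apart in the comparison. At an unadjusted p under 0.05 there were 431 genes, and DESeq2 called 7, which added Gfap, Vim, Lgals3bp and Ptgds.

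No gene of the other lists passed edgeR's test, so their differences are given as sizes. All 12 tested interferon and MHC class I genes had both 7 dpi slices above both 21 dpi slices, with a median log2 difference of 1.45, against 1552 of 10417 genes in all (14.9%) and a median of 0.01. The same held for 5 of 6 reactive astrocyte genes (median 1.25), 11 of 15 phagocyte genes (0.91), 8 of 11 microglia genes (0.87) and 10 of 11 homeostatic astrocyte genes (0.39). The other 1 of the 6 reactive astrocyte genes was lower at 7 dpi, with an unadjusted edgeR p under 0.05. Lcn2, the gene furthest above rest at 2 dpi, was at 12.0 and 2.12 CPM at 7 dpi and at 53.8 and 10.6 at 21 dpi. Both slices at 7 dpi lay below both at 21 dpi for 9 of 17 immediate early genes (median -0.77) and 7 of 19 vesicle genes (-0.20), against 1749 of all genes (16.8%). Over the 18 alternatives the median ranged from 0.90 to 1.99 for interferon genes, 1.07 to 1.77 for reactive astrocyte, 0.26 to 1.11 for phagocyte, 0.44 to 1.19 for microglia, 0.03 to 0.64 for homeostatic astrocyte and -1.14 to -0.41 for immediate early genes.

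Other neuronal lists had medians of 0.20 (glutamate receptors), -0.12 (channels and the sodium pump), -0.15 (glutamatergic identity), -0.03 (axon growth), -0.23 (activity-regulated secreted proteins), -0.41 (layers 2/3 and 4) and -0.38 (layers 5 and 6). In cortical spots the values were -0.03, -0.27, -0.31, -0.06, -0.01, -0.11 and -0.19 in that order, and -0.21 for vesicle genes. There, 11 of 11 identity genes, 16 of 17 channel genes and 17 of 19 vesicle genes were lower at 7 dpi, against 4111 of 8421 genes in all. Oligodendrocyte genes had a median of 0.03 with all selected spots and 0.48 in cortical ones.

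Single genes had differences of several SE without passing the adjustment over all genes. Gfap was higher at 7 dpi by 1.55 (SE 0.25, n = 2 against 2, edgeR adjusted p = 0.182) and Vim by 1.49 (SE 0.24, adjusted p = 0.182). The value for Spp1 was 2.77 (SE 0.49, adjusted p = 0.301), for Isg15 2.90 (SE 0.56, adjusted p = 0.461) and for H2-K1 1.49 (SE 0.32, adjusted p = 0.501). Ier2, an immediate early gene, had a difference of -1.40 (SE 0.36, adjusted p = 0.866), Fos of -1.46 (SE 0.41) and Arc of -1.25 (SE 0.52). Among synaptic genes, Stx1a, which encodes the SNARE syntaxin 1A, had -0.89 (SE 0.30) and Snap25 -0.28 (SE 0.23).

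Without the spots with hippocampal or thalamic markers, a comparison added after the data were seen, 25 of 8421 genes passed (0.297%), 21 of them higher at 7 dpi (0.249%). The same 3 sex-linked genes were among the 25, 1 higher and 2 lower at 7 dpi. Of the other listed genes that rose, 4 were reactive astrocyte genes (Gfap, Vim, S100a6, Serpina3n) and 5 interferon or MHC class I genes (H2-K1, H2-D1, Ifitm3, Ifi27l2a, Ifit3). A further 3 were phagocyte genes (Spp1, Ctss, Ctsd), 2 microglia genes (C1qa, C1qb) and 1 the astrocyte gene Aqp4. In these cortical spots Gfap was at 582 and 355 CPM at 7 dpi and at 125 and 85.5 at 21 dpi, a log2 difference of 2.19 (SE 0.26, edgeR adjusted p = 0.00155). Ifi27l2a, an interferon-induced gene, was at 126 and 32.9 against 6.27 and 8.41 (3.40, SE 0.61, adjusted p = 0.0289), and C1qa at 488 and 250 against 144 and 118 (1.53, SE 0.27, adjusted p = 0.0283). Over the 18 alternatives of the comparison, the edgeR or DESeq2 adjusted p of Gfap ranged from 8.60e-08 to 0.999 with 7 calls, that of Ifi27l2a from 8.50e-10 to 0.999 with 5, and that of C1qa from 0.0159 to 1.0 with 3.

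A pair of genes of neuronal channels, named after their values were seen, were lower at 7 than at 21 dpi in the cortical spots. Kcnip2, which encodes a partner of A-type potassium channels, was at 34.7 and 34.9 CPM at 7 dpi and at 87.7 and 115 at 21 dpi (log2 difference -1.50, SE 0.27, edgeR adjusted p = 0.0292), with 55.3 at rest and 56.0 at 2 dpi. Scn4b, a sodium channel beta subunit, was at 17.4 and 25.2 against 62.7 and 74.3 (-1.62, SE 0.32, adjusted p = 0.0487), with 33.8 at rest. Both were thus lowest at 7 dpi and above rest at 21 dpi. With all selected spots, Kcnip2 was at 125 and 103 against 137 and 115 (-0.13, SE 0.21), so its call rests on leaving out those spots, and its adjusted p over the 18 alternatives ranged from 0.0292 to 1.0 with 1 call. For Scn4b that range was 0.00931 to 1.0 with 2 calls. No immediate early gene and no vesicle gene passed in either comparison.

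**Figure D4:**
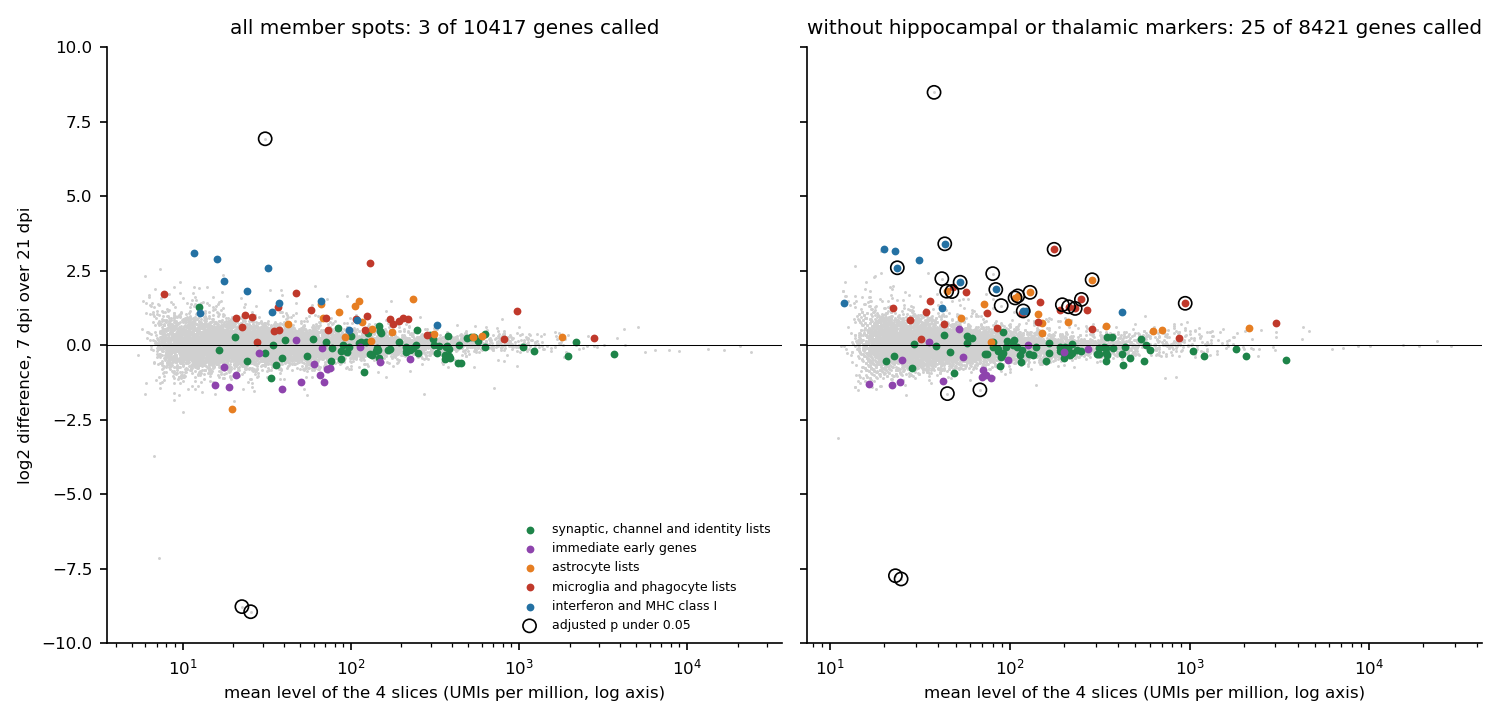
Log2 difference of 7 over 21 dpi in WT slices (vertical axis) against the mean level of the 4 slices (CPM, log axis), 1 point per gene, for all selected spots (left) and without spots with hippocampal or thalamic markers (right). Circles mark an edgeR adjusted p under 0.05: 3 of 10417 genes on the left, all sex-linked, and 25 of 8421 on the right. Among the 25 are the same 3 sex-linked genes and red, orange and blue points of the phagocyte, microglia, astrocyte and interferon lists.

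Whether the neuron-rich spots differed from the other Col1a1-free spots in the size of the 7 to 21 dpi difference was tested as an interaction, in a fit over both classes of spots of the same 4 slices, paired by slice. Of 12542 genes, 6 passed (0.0478%), and all had a smaller 7 over 21 dpi difference in the neuron-rich spots. Ctsd was at 1661 and 1003 CPM at 7 dpi and at 738 and 486 at 21 dpi in neuron-rich spots, and at 4948 and 5595 against 1149 and 589 in the others (interaction -1.56 on the log2 scale, SE 0.26, edgeR adjusted p = 0.0225). Lyz2, the lysozyme of macrophages, was at 103 and 62.6 against 108 and 94.0 in neuron-rich spots, and at 391 and 627 against 189 and 102 in the others (-2.01, SE 0.33, adjusted p = 0.0225). Both genes stood high in the other spots at 7 dpi and at much nearer levels elsewhere. Grn and Fcer1g, genes of the lysosome and of an Fc receptor chain, had the same pattern (-1.69, SE 0.27, and -1.71, SE 0.28), as did the phagocyte gene Gpnmb (-2.78, SE 0.48, adjusted p = 0.0284). The sixth, Prkcd (-2.88, SE 0.32, adjusted p = 0.000375), is a marker of thalamus and was among the genes used to mark that region.

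The phagocyte list had a median interaction of -1.29 and the microglia list of -0.92, while the reactive astrocyte list stood at -0.44, interferon genes at -0.32 and all genes at 0.00. Vesicle genes (0.44) and glutamate receptor genes (0.50) had positive medians. Ctsd and Gpnmb were the genes of these lists that passed. Since the classes were split on Slc17a7, spots with many phagocytes and few neurons fall among the others by construction, and the part of this in the result was not tested.

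**Figure D5:**
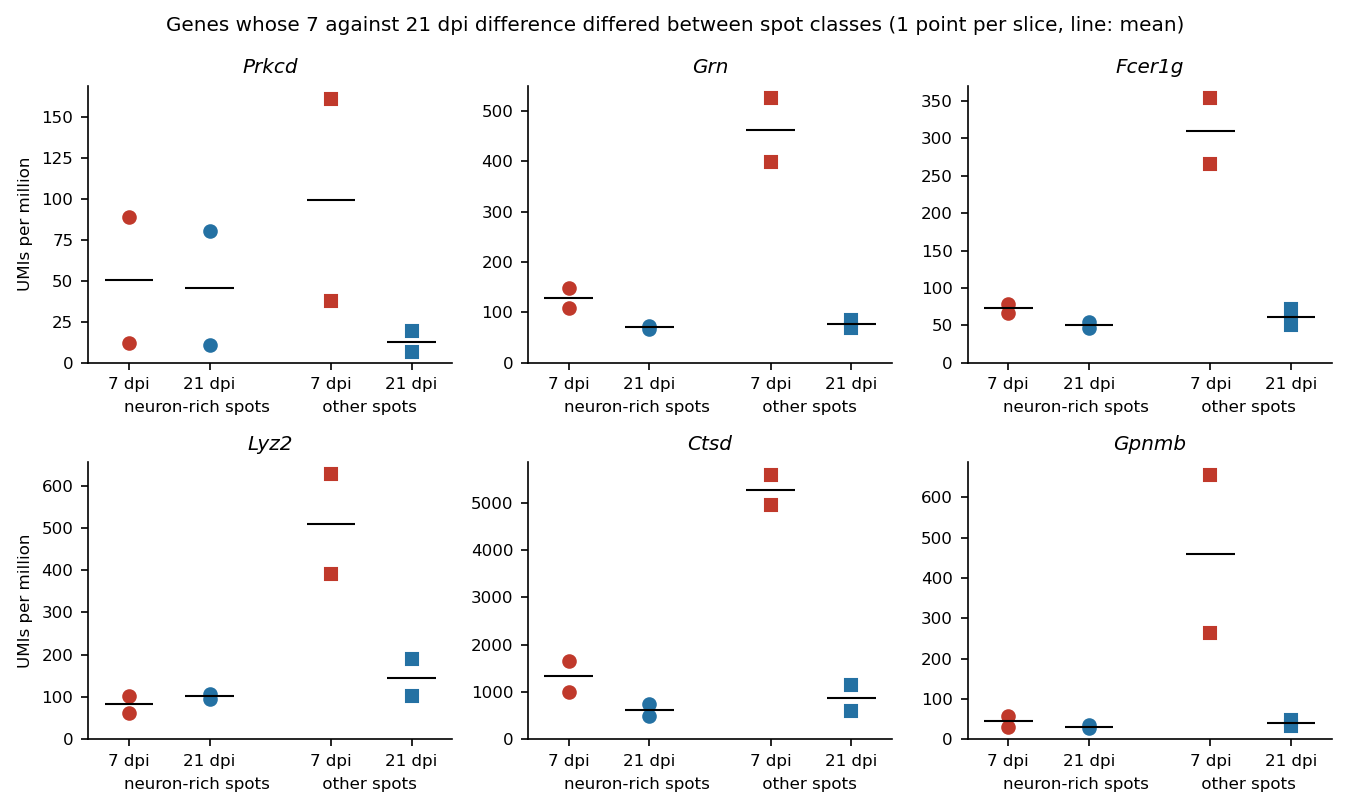
Levels of the 6 genes that passed the interaction test, in CPM (vertical axis, linear from 0), for glutamatergic neuron-rich spots (circles) and other Col1a1-free spots (squares) at 7 dpi (red) and 21 dpi (blue). Each point is 1 slice and each line the mean of 2. Grn, Fcer1g, Lyz2, Ctsd and Gpnmb are high in the other spots at 7 dpi only, with Ctsd at 4948 and 5595 there.

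Within the neuron-rich spots of the 4 WT slices at 7 and 21 dpi, the third nearest to Col1a1-rich spots, called scar here, was compared with the third farthest, paired by slice. The same limits marked 3 spots in the uninjured rest slice, so not every such spot need be scar. They marked 93 and 391 spots at 7 dpi, and 170 and 199 at 21 dpi. None of 7399 genes passed edgeR's test (0.0%), with 460 at an unadjusted p under 0.05, and DESeq2 called 1 (Pcp4). Gfap was at 684 and 473 CPM near and 304 and 208 far at 7 dpi, and at 127 and 242 near and 138 and 35.4 far at 21 dpi (log2 difference 1.08, SE 0.27, adjusted p = 0.305). It was higher near the scar in 3 of 4 slices. All 6 tested reactive astrocyte genes (median 1.06) and all 13 phagocyte genes (0.48) had higher values near the scar, and all 10 oligodendrocyte genes lower ones (-0.35), against 3798 of 7399 genes higher over all. In cortical spots 5 of 5 reactive astrocyte genes (median 0.96) and 8 of 12 phagocyte genes (0.20) were higher near the scar, and 10 of 10 oligodendrocyte genes lower (-1.02).

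Cortical depth changed with distance as well. The list of layer 2/3 and 4 genes had a median of 0.62 and that of layer 5 and 6 genes of -0.35. Nr4a2, a gene of deep cortical neurons that also stands on the immediate early list, was at 51.8, 17.2, 44.7 and 36.5 CPM near and at 112, 35.2, 132 and 173 far in the 4 slices (-1.49, SE 0.24, adjusted p = 0.0875), lower near the scar in all 4. In cortical spots alone, an addition after the data were seen, 16 of 5008 genes passed, 5 higher near the scar (Rasgrf2, Calb1, Camk2n1, Malat1, Ppfia2) and 11 lower, among them Nr4a2, Sst and the myelin genes Mbp, Mobp and Cldn11. Layer and myelin genes thus moved with distance, and how far this entered the astrocyte and phagocyte values was not tested.

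WT and deleter slices at 21 dpi, 2 each, differed in none of 10440 genes by edgeR (0.0%), with 226 at an unadjusted p under 0.05 and 0 by DESeq2. The median log2 value of WT over deleter was 3.09 for blood genes, -0.67 for glucocorticoid-responsive genes and 0.63 for immediate early genes, against -0.01 over all genes. The blood list summed to 121 and 1107 CPM in the WT slices and to 72.1 and 73.5 in the deleter slices, so WT slice 2 set that value. Of 18 immediate early genes, 14 were higher in WT, against 5088 of 10440 genes in all. The WT slices were both from mice with Y-linked transcripts, and the deleter slices from 1 mouse with Xist (85.2 CPM) and 1 without (0.886).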

How the data were processed

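Fresh-frozen brain slices were profiled by Visium, and the authors deposited the UMI counts of each spot, unscaled, for 4 capture areas, made with Space Ranger 2.0.0 on mm10 per the submitters' processing notes. Slices were separated as connected pieces of tissue spots. Counts of the selected spots were summed per slice, so that the slice, and with it the mouse, was the unit. The 8 slice sums held 755420 to 3370631 UMIs. Levels are counts-per-million (CPM) of that sum. Ratios to rest used genes with at least 20 CPM and, for list medians, 5 added to both levels. For the 2-fold counts, UMI counts under 3 were set to 3. Intervals are exact and cover counting error only.

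Sums were tested with edgeR 4.0.16 (R 4.3.3; filterByExpr, TMM factors, quasi-likelihood F test, Benjamini-Hochberg adjustment at 0.05), with DESeq2 1.42.0 as an alternative and the slice as a block where 2 classes of spots of 1 slice were compared. The SE given with an edgeR log2 difference is its size divided by the square root of the F statistic. It thus restates the test and is not a separate estimate of spread. The code was tested on simulated data. Hippocampal or thalamic spots were marked by the level of marker genes in the spot and its up to 6 neighbours, with at least 3 marker UMIs. The level had to reach 0.5 per 10000 for Spink8, Fibcd1 and C1ql2 summed or for Prkcd, or 3 per 10000 for Hs3st4. A scar spot held at least 3 Col1a1 UMIs and 5 per 10000.

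The 30 gene lists, the selection rule and the tests were chosen with earlier results of these data known. Named genes were the 6 furthest from rest, 4 per list by p with further list members, and genes that passed a test. Of the latter, up to 12 per direction were to be named at 7 against 21 dpi and 5 from each other test, by size of the log2 difference. At 7 against 21 dpi only sex-linked genes passed, so that rule named no other gene. Each 7 and 21 dpi group lay in 1 capture area, so time and area cannot be told apart, and p-values rest on 2 mice a group. Alternatives were the share of spots taken, ranking on spots thinned to 1000 UMIs (with their full counts summed), ranking by other genes, filters, tools and leaving out each slice. Some genes are not reported here.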

Additional observations from a re-analysis of the deposited data

Results flagged for a closer look

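For 6 genes the 7 over 21 dpi difference was unlike in glutamatergic neuron-rich and in other Col1a1-free spots, by edgeR's interaction test. The log2 interaction was -2.88 for Prkcd, -1.69 for Grn, -1.71 for Fcer1g, -2.01 for Lyz2, -1.56 for Ctsd and -2.78 for Gpnmb. Grn was at 149 and 108 CPM at 7 dpi and at 72.4 and 67.5 at 21 dpi in neuron-rich spots, and at 398 and 526 against 84.1 and 67.9 in the others. Prkcd was at 88.8 and 11.7 against 80.5 and 10.6 in neuron-rich spots, and at 161 and 37.8 against 19.5 and 6.28 in the others. In neuron-rich spots its slices thus differed more within each time than between times. Prkcd is a marker of the thalamus, which the slices reached to different extents, and the part of this in the result was not tested.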

How the results depend on the processing

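Limits: each group held 1 or 2 mice, rest and 2 dpi 1 each, and slices differed in region, sex-linked genes and capture area. At 2 dpi the median spot held 1792.5 UMIs, so single-spot values there are coarse. The compared groups of mice could not be paired, because each slice came from a separate mouse. Classes of spots within a slice were compared with the slice as a block.

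The 3 calls of 7 against 21 dpi became 0 with the top 10% of spots, 8 on ranking by 5 other genes, 0 with all 8 slices in the fit, 7 with DESeq2, 89 without a filter on low counts and 25 without hippocampal or thalamic spots (the last added after the data were seen). Leaving out 1 slice gave 3 to 126 (3 without 7 dpi slice 1, 65 without 7 dpi slice 2, 126 without 21 dpi slice 1, 31 without 21 dpi slice 2). The 0 calls of WT against deleter became 0 to 5. The 6 interaction calls became 0 with the top 10%, 1 with the top 30%, 104 without a filter and 32 to 190 without 1 slice. The 0 calls of near against far became 14 with the top 30%, 53 on ranking thinned spots (full counts summed) and 2 on ranking by other genes. They became 2 without spots at the tissue edge, 4 on splitting all spots at the median distance and 1 with DESeq2. They were 10 at 7 dpi alone, 16 in cortical spots and 0 to 21 without 1 slice.

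Against rest, 243 genes higher at 2 dpi became 457 with the top 10% and 370 on ranking thinned spots or with a common threshold. There, 71 lower became 237 (top 10%), 47 (top 30%) and 184 (common threshold). At 7 dpi, 38 lower became 101 (top 10%) and 18 (ranking of thinned spots). At 21 dpi, 33 higher became 72 (top 10%), and 15 lower 35 (top 10%) and 9 (top 30%).

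The log2 difference of 7 over 21 dpi changed sign for Apoe (-0.037 with the top 10%, -0.010 to 0.45 on leaving out 1 slice, negative without 7 dpi slice 1), Kcnip2 (0.11 with the top 10%, -0.31 to 0.012 on leaving out 1 slice, and 0.0031 without 7 dpi slice 2), Gria2 (-0.085 to 0.73 on leaving out 1 slice, negative without 7 dpi slice 1) and Kcnd2 (-0.049 in cortical spots). The cause was not tested.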

Other observations

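Some genes outside the lists also differed between slices. Gm42418, a transcript that overlaps ribosomal RNA sequence, was at 13919 CPM at rest, 19195 at 2 dpi, 6507 and 5751 at 7 dpi, 4569 and 3496 at 21 dpi, and 12342 and 6963 in the deleter slices. Rest and 2 dpi shared a capture area and held the highest values. Perineuronal net and neural matrix genes had a median log2 difference of 7 over 21 dpi of 0.44, with none passing edgeR's adjustment. Of 7 tested genes, 7 were higher at 7 dpi, against 5340 of 10417 genes in all. For 4 of the 7, both 7 dpi slices lay above both 21 dpi slices, against 1552 of all genes (14.9%). In cortical spots 5 of 6 were higher (median 0.67), against 4310 of 8421 genes.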
